A study of Homo sapiens with 2 samples.

Results

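SR proteins, heterogeneous nuclear ribonucleoproteins (hnRNPs) and the kinases that phosphorylate SR proteins were followed at the transcript level in the human lung adenocarcinoma line CL1-0, cultured and given an antibody to FSTL1, a secreted glycoprotein of the follistatin family. Genes were taken by symbol: those beginning with SRSF or its older form SFRS followed by a number, those beginning with HNRNP or HNRP, the kinases CLK1 to CLK4 and SRPK1 to SRPK3, and TRA2A and TRA2B. Only probe sets assigned to a single gene counted, which gave 143 probe sets of 40 genes, out of 41091 probe sets of 19775 genes. The 40 comprised 4 CLK kinases, 3 SRPK kinases, 10 SR proteins, 2 TRA2 proteins and 19 hnRNPs, and 2 entries that match by name only: the long noncoding RNA HNRNPD-DT and the pseudogene HNRNPA3P1.

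Cells given the antibody for 6 h were compared with cells at 0 h, with 1 Affymetrix array each. Both were, per the labels, selected with puromycin and stably transduced with a construct that the labels do not name. Cells kept for 6 h without the antibody were not analysed here, so time in culture and the antibody cannot be told apart. With 1 array per time there is no spread between replicates and no test of any difference, and the number of arrays limits the precision. Differences below are log2 intensity at 6 h minus log2 intensity at 0 h, and the only error that can be given is how far probe sets for a shared gene disagree, with a pooled SD of 0.16 over 6122 genes. In bulk RNA fewer cells expressing a gene and less RNA per cell cannot be told apart.

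The arrays were alike in overall level, with a median intensity of 44.9 at 6 h and 45.8 at 0 h. Intensities under 45.4, the median of both arrays together, were treated as background, and a probe set above this floor on at least 1 array was called measured. The labels call the cells type II alveolar. Of 10 markers of that cell type 8 had a probe set of their own and 5 were measured. The lipid transporter ABCA3 was at 207.9 at 6 h and 173.4 at 0 h, and the surfactant protein SFTPB at 132.7 and 103.8. NKX2-1 (68.6 and 56.7) and NAPSA (61.0 and 51.1) were also higher at 6 h, and the surfactant protein SFTPC was lower (92.3 and 113.3). SFTPD, LAMP3 and SLC34A2 lay below the floor at both times. Of 5 general epithelial markers KRT18 (120.9 at 6 h, 148.2 at 0 h) and KRT8 (52.4 and 48.1) were measured, and EPCAM, CDH1 and KRT19 were below the floor. Markers of leukocytes were measured for 0 of the 4 genes with a probe set of their own, of endothelium for 1 of 5 and of fibroblasts for 2 of 6. COL1A1 was the brightest of the fibroblast markers, at 179.4 at 6 h and 230.1 at 0 h. Summed intensity, genes below the floor included, was 97.6 at 6 h and 112.8 at 0 h for leukocytes. It was 144.1 and 160.2 for endothelium, and 298.2 and 360.6 for fibroblasts. The type II list summed to 616.1 and 556.3, and the epithelial list to 244.1 and 266.5. Leukocyte sums hold only values below the floor and so describe background, and the endothelial sums hold 1 measured gene. The part of leukocytes, endothelium and fibroblasts in the results below was not tested.

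SR proteins bind exons through RNA recognition motifs and recruit the spliceosome through tails rich in arginine-serine repeats. SRPK kinases phosphorylate these tails in the cytoplasm, which brings SR proteins into the nucleus, and CLK kinases phosphorylate them further in the nucleus and release them from nuclear speckles. Many hnRNPs coat nascent transcripts and often oppose exon inclusion. SR and hnRNP genes are known to limit their own expression by splicing in poison exons that send the transcript to nonsense-mediated decay, and CLK1 transcripts with unspliced introns are held in the nucleus, so different probe sets of a gene can report different transcript forms.

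CLK1 and CLK4 are shown here because they had the largest differences among the protein-coding genes and were both higher at 6 h, and SRSF7 because all of its probe sets were lower. All measured sets of SRSF4, HNRNPA1 and HNRNPL were lower as well. The sequences are the 250 bases upstream of the most upstream RefSeq start in GRCh38.p14, 5′ to 3′ on the gene's strand, which is the minus strand for all 3 genes. They lie at chr2:200864659-200864908 for CLK1, chr5:178627051-178627300 for CLK4 and chr2:38751495-38751744 for SRSF7. Capitals mark the half-site of the cAMP response element (TGACG on either strand) and the E-box CACGTG.
CLK1: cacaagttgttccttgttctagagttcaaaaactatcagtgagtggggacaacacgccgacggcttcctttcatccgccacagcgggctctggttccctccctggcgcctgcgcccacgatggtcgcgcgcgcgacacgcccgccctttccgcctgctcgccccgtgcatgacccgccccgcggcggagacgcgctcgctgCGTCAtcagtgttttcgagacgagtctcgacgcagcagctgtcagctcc
CLK4: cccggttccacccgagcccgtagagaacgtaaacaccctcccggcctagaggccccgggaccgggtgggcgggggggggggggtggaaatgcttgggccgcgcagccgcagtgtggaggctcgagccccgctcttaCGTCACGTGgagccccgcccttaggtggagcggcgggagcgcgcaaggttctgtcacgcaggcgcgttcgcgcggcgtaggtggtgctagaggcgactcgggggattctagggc
SRSF7: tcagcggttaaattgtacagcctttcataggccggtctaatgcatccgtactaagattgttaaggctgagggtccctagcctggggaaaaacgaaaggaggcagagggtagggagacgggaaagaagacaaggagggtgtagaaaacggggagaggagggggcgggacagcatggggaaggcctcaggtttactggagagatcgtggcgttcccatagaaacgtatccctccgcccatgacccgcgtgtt
The CLK1 window holds the half-site as CGTCA, beginning 49 bases before the start, and the CLK4 window holds it as CGTCA 114 bases before the start, where its last letters overlap the E-box. The SRSF7 window holds neither motif. All 3 windows hold the GC box GGGCGG on either strand, which is not marked. The half-site occurs in windows of 22 of the 37 genes that have windows, and its relation to the direction of the differences was not tested. SRSF7 and CLK1 each have 2 RefSeq starts and only the more upstream one is shown.

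Windows for 37 of the 40 genes were found in the RefSeq table, 56 windows in all because some genes have several starts, whose windows can overlap. The half-site TGACG occurred in 44.6% of these windows and in 21.2% of all 35116 windows of the same length. The E-box CACGTG occurred in 14.3% against 6.34%, the GC box GGGCGG in 60.7% against 42.6% and the sequence CCAAT in 37.5% against 32.0%, each counted on both strands. TATAAA was found in 12.5% against 10.7% and the heat shock element GAANNTTC in 7.14% against 5.78%. The AP-1 motif TGANTCA (6.57% of all windows) and the ATF4-C/EBP motif TGATGNAA (3.14%) occurred in 0 of the 56. Base composition differed as well, with a median of 65.2% G and C in the 56 windows and 58.0% in all windows, and its part in these shares was not tested. A match describes letters in the window and is no evidence of binding.

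Most genes of the splicing families differed little between the times. Of the 40 genes, 38 had a measured probe set, and 119 of the 143 probe sets were measured. The genes without one were SRSF12, an SR-related repressor, and HNRNPA3P1. With each gene represented by its brightest measured probe set, 20 were higher and 18 lower at 6 h, where 54.3% of all 12669 measured genes were higher and 45.7% lower. Their median difference was 0.015, beside 0.017 over all measured genes, and they ranged from -0.26 for SRSF7 to 0.55 for CLK1. None of the 38 reached 1.5-fold in either direction, a size that 0.75% of all measured genes reached upward and 0.182% downward. At the smaller size of 1.2-fold, a log2 difference of 0.263, 3 genes were higher (CLK1, CLK4 and HNRNPD-DT), or 7.89%, and 0 were lower. Over all measured genes 9.9% were at least 1.2-fold higher and 5.29% at least 1.2-fold lower, so neither count exceeds the background. Among the 35 genes in the brighter range, a mean log2 intensity of at least 8.64, 2 were at least 1.2-fold higher and 0 lower, beside 7.94% and 2.12% of all genes in that range. Over probe sets, 12 of 119 were at least 1.2-fold higher and 5 lower, where the shares among all measured probe sets were 10.9% and 5.68%.

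**Figure D1:**
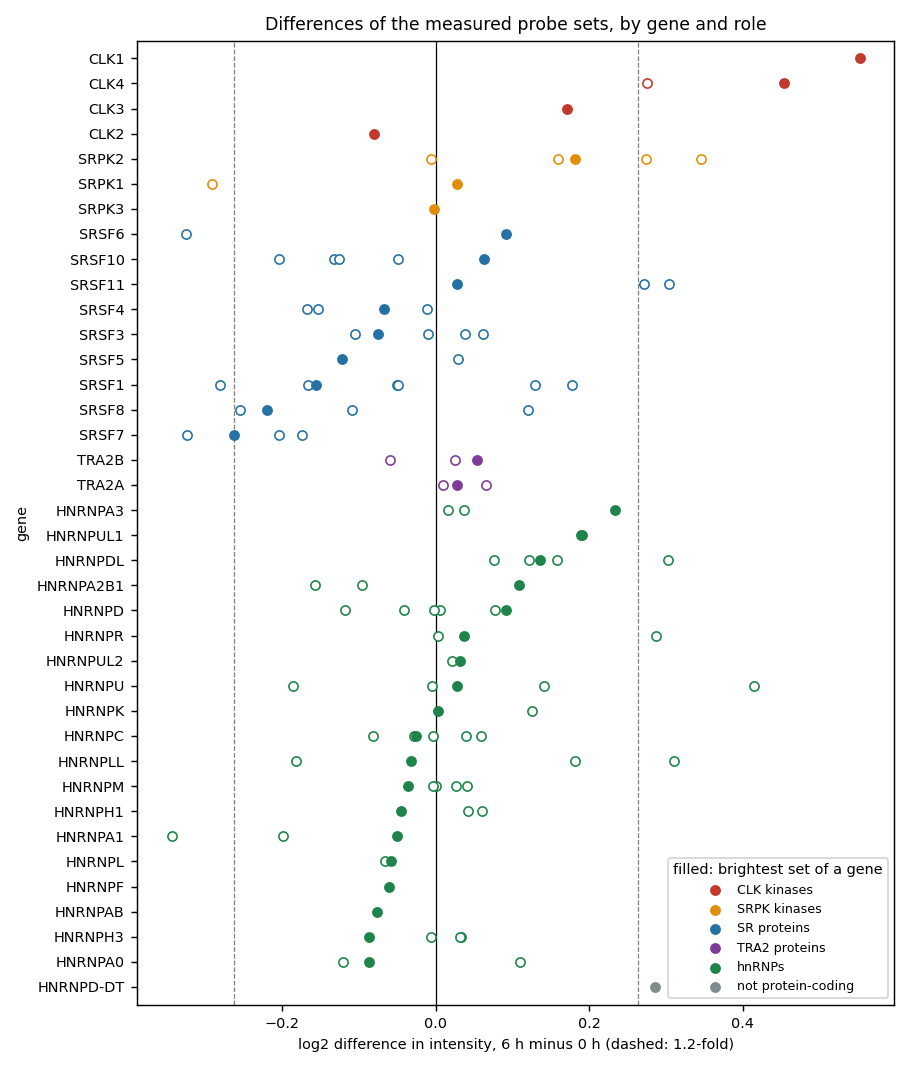
Log2 difference in intensity (6 h minus 0 h, x axis) of every measured probe set, by gene (rows) and role (colours), with the brightest set of each gene filled and dashed lines at 1.2-fold. CLK1 and CLK4 lie farthest to the right (0.55 and 0.45), all 4 sets of SRSF7 lie left of 0, and the filled points of the hnRNPs lie between -0.09 and 0.23.

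CLK1 and CLK4 had the largest differences among the protein-coding genes. CLK1, a dual-specificity kinase of nuclear speckles, had an intensity of 542.4 at 6 h and 369.7 at 0 h on its only probe set, a difference of 0.55 or 1.47-fold. CLK4, a close paralog of CLK1, had 500.2 at 6 h and 365.1 at 0 h on its brightest set (0.45, 1.37-fold). Its second measured set had 203.4 and 168.2 (0.27, 1.21-fold), so both sets of CLK4 were higher at 6 h, as they were for 35.4% of the 3402 genes with 2 measured sets.

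CLK3 was at 331.1 at 6 h and 294.0 at 0 h (0.17), and CLK2 at 759.6 and 802.8 (-0.08). The family was therefore not uniform, with a median of 0.31 over 4 genes, 3 higher and 1 lower. A difference as high as that of CLK1 was found in 133 of the 12669 measured genes, CLK1 included, and as high as that of CLK4 in 266. Among the 5705 genes at least as bright as CLK1, 28 were as high, CLK1 included. The sets of CLK1 and the brighter one of CLK4 carry the suffix _s_at, which Affymetrix gives to sets whose probes match several transcripts, and signal shared between CLK1 and CLK4 was not tested. Without such sets CLK1 was not measured and CLK4 kept the difference of 0.27 of its other set. Of the 2 further CLK4 sets, both were below the floor (7.50 and 11.3 at 6 h, 8.76 and 10.2 at 0 h), as was a second set of CLK3.

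The SRPK kinases differed little on the brightest sets, and SRPK1 and SRPK2 each had sets of both signs. Among all genes, sets of both signs were found in 36.1% of those with 2 measured sets and 75.0% with 5. Over all measured probe sets 54.8% were higher. SRPK2 had 5 measured sets, of which 4 were higher at 6 h. They read 1285 at 6 h and 1134 at 0 h (0.18), 877.4 and 785.6 (0.16), 435.7 and 360.3 (0.27), and 208.4 and 163.9 (0.35). The fifth set read 114.2 and 114.7, a difference of -0.006. The sets of SRPK1, a kinase often studied in cancer, pointed different ways. Its bright set was at 3750.3 at 6 h and 3677.5 at 0 h (0.03), and its dim set at 255.6 and 312.9 (-0.29, 1.22-fold lower). SRPK3, a kinase of muscle, was near the floor and level at 55.8 and 55.9.

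**Figure D2:**
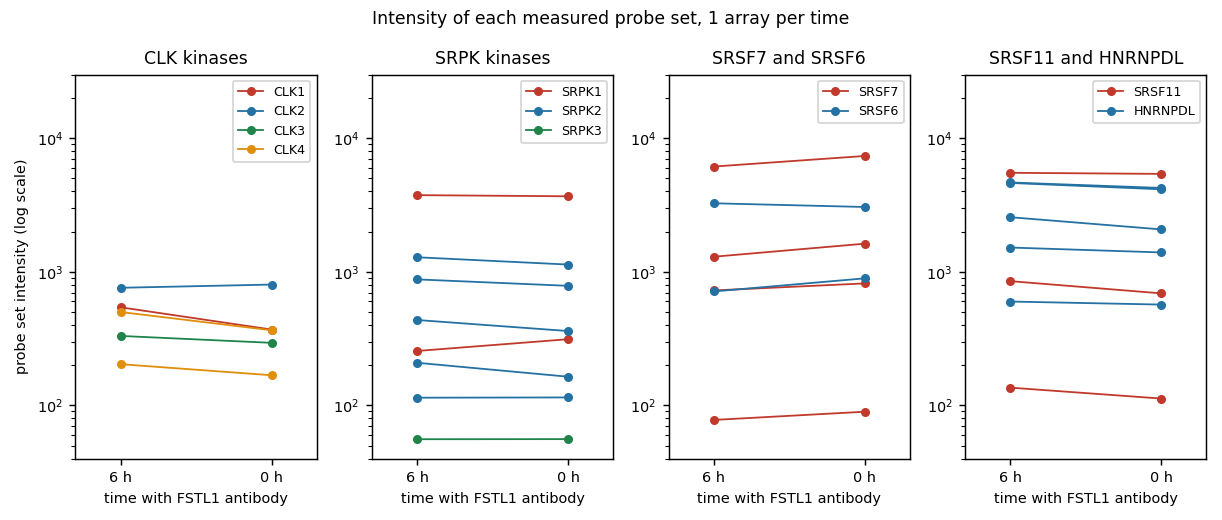
Intensity of each measured probe set (log y axis) at 6 h (left point) and 0 h (right point), 1 array per time, for the CLK kinases, the SRPK kinases, SRSF7 with SRSF6, and SRSF11 with HNRNPDL. The 6 h point is above the 0 h point for CLK1, both CLK4 sets and 4 of 5 SRPK2 sets, and below it for all 4 SRSF7 sets.

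More probe sets of SR proteins were lower than higher at 6 h. On the brightest set, 3 of 9 measured genes were higher and 6 were lower at 6 h (median -0.07). Of their 36 measured sets 11 were higher and 25 lower, where 54.8% of all measured probe sets were higher and 45.1% lower. The sets of a gene share its transcripts and are not independent, so no test was made of this count. At 1.2-fold, 0 of the 9 genes were higher and 0 lower, beside 9.9% and 5.29% of all measured genes. SRSF2 and SRSF9 are not among the 9, because their sets also name another gene. Those sets differed by 0.04, 0.02 and -0.06 for SRSF2 and by 0.07 and 0.06 for SRSF9, so the lean downward does not extend to them.

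SRSF7, an SR protein with a zinc knuckle that also serves in mRNA export, was the lowest. Its 4 sets read 6141 at 6 h and 7366 at 0 h (-0.26), 1297 and 1624 (-0.32), 725.6 and 818.7 (-0.17), and 77.8 and 89.6 (-0.20). Every set was lower at 6 h, which 8.9% of the 674 genes with 4 measured sets showed. The brightest set was 1.1996-fold lower, just short of 1.2-fold, and passed that size when differences were centred on the median or scaled by quantiles or loess. Of 308 genes at least as bright as SRSF7, 2 were as low, SRSF7 included, and over all measured genes 674 were.

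SRSF1, the founding member of the family and a known oncogene product, was at 8083 at 6 h and 9009.8 at 0 h on its brightest set (-0.16). Of its 7 measured sets 5 were lower and 2 higher, between -0.28 and 0.18. Of 204 genes as bright as its brightest set or brighter, 2 were as low, SRSF1 included. SRSF4 was lower on all 4 of its sets by small amounts, between -0.17 and -0.01, with 1947 at 6 h and 2041 at 0 h on the brightest.

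SRSF8, which arose as a retrotransposed copy of SRSF2, was at 966.0 at 6 h and 1125 at 0 h on its brightest set (-0.22), and of its 4 sets 3 were lower and 1 higher at 0.12. Signal that its probes take from SRSF2 was not tested, and without _x_at and _s_at sets its difference was 0.12. SRSF5 was at 3647 at 6 h and 3970 at 0 h (-0.12), with its other measured set at 0.03. SRSF3, the smallest SR protein, was at 10463 and 11020 (-0.07), with 5 sets between -0.11 and 0.06.

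A pair of SR genes were higher on the brightest set and lower on every other. SRSF6 was at 3259 at 6 h and 3059 at 0 h on its brightest set (0.09), but at 713.1 and 893.5 on the other (-0.33, 1.25-fold lower). SRSF10, a repressor that acts when dephosphorylated after heat shock, was at 1987 and 1903 on the brightest set (0.06) and lower on the other 4, between -0.20 and -0.05. Which transcript forms these sets report was not determined here.

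SRSF11 was the 1 SR gene whose measured sets were all higher, and was named after its values were seen. Its brightest set was level at 5513 at 6 h and 5411 at 0 h (0.03), while its other sets read 851.5 and 690.0 (0.30) and 135.8 and 112.5 (0.27), both at least 1.2-fold higher. Of the 1629 genes with 3 measured sets, 26.6% had all sets higher. The TRA2 proteins, which activate exons through GAA-rich enhancers, barely differed. TRA2A was at 2048 at 6 h and 2008 at 0 h (0.03) and TRA2B at 6643 and 6402 (0.05), and their 6 measured sets lay between -0.06 and 0.07.

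**Figure D3:**
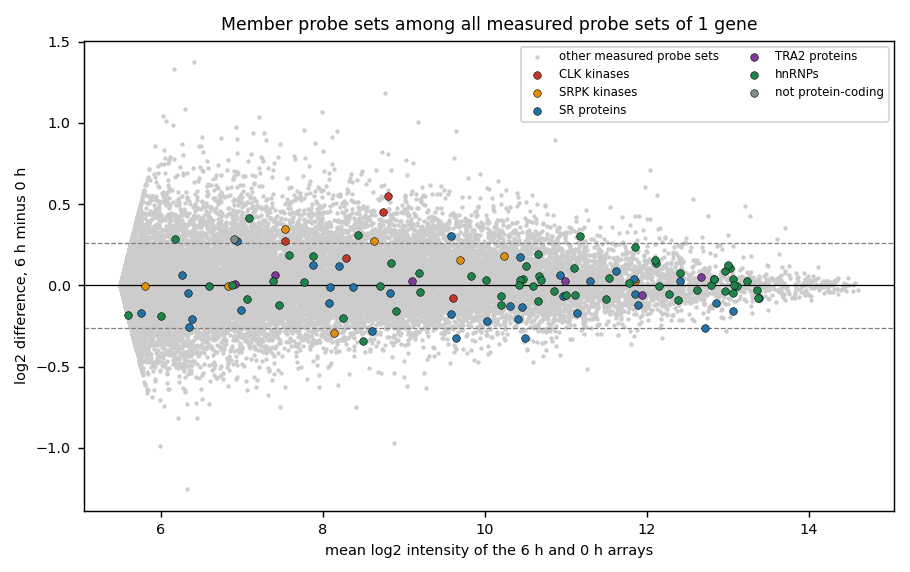
Log2 difference (6 h minus 0 h, y axis) against the mean log2 intensity of both arrays (x axis) for all measured probe sets of a single gene (grey) and those of the splicing families (coloured by role), with dashed lines at 1.2-fold. The grey cloud narrows with brightness, most coloured points lie inside it, and the brightest SRSF7 set lies at its lower edge (-0.26).

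The hnRNPs were close to level as a group. All 19 protein-coding genes were measured, of which 9 were higher and 10 were lower at 6 h, and the median was -0.03 within a range of -0.09 to 0.23. Over all measured genes 54.3% were higher and 45.7% lower. At 1.2-fold, 0 hnRNP genes were higher and 0 lower, beside 9.9% and 5.29% of all measured genes. HNRNPA3 had the largest difference, at 4026 at 6 h and 3423 at 0 h (0.23), but its other 2 sets differed by 0.02 and 0.04. Sets it shares with the pseudogene HNRNPA3P1, left out of the comparison, differed by 0.06, 0.14 and 0.08. The brightest of these shared sets read 10988 at 6 h and 10558 at 0 h (0.06). HNRNPUL1, an RNA-binding protein also tied to DNA repair, was at 1721 at 6 h and 1507 at 0 h (0.19), and its other set gave the same difference (205.1 and 179.9).

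HNRNPDL, which takes part in splicing and whose own transcript carries a regulated poison exon, was higher on all 5 measured sets. They read 4666 at 6 h and 4246 at 0 h (0.14), 4629 and 4148 (0.16), 2563 and 2078 (0.30), 1520 and 1397 (0.12), and 599.0 and 568.6 (0.08). Among the 260 genes with 5 measured sets, 18.1% had all sets higher. Its neighbour in kind HNRNPD, known as AUF1 and a factor of AU-rich element mRNA decay, was at 8264 and 7755 on the brightest set (0.09), with 3 of 6 sets higher.

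HNRNPA2B1 was at 8661 at 6 h and 8032 at 0 h (0.11) and lower on its other 2 measured sets (-0.10 and -0.16). HNRNPA0 was at 5190 at 6 h and 5513 at 0 h (-0.09), HNRNPH3 at 2806 and 2980 (-0.09) and HNRNPAB at 10285 and 10848 (-0.08). HNRNPC, which binds uridine tracts and shields against aberrant exons, had 6 measured sets between -0.08 and 0.06 and was at 10449 and 10637 on the brightest. On the brightest set each of these 5 genes differed by less than the SD of 0.16 between sets of a gene. That SD covers sets of all brightness on the same arrays and does not measure the error of a bright set. Of genes at least as bright as HNRNPA2B1, 8 of 210 were as high. As low were 45 of 465 for HNRNPA0, 161 of 1059 for HNRNPH3, 4 of 141 for HNRNPAB and 42 of 142 for HNRNPC. These counts include the gene itself.

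The remaining 10 hnRNP genes had brightest-set differences between -0.06 and 0.04. Some of them had a dimmer set that stood off, and those are named after their values were seen. A set of HNRNPU, the nuclear scaffold protein SAF-A, read 157.4 at 6 h and 118.1 at 0 h (0.41), while its brightest set was at 9754 and 9570 (0.03). A set of HNRNPLL, a regulator of CD45 splicing in T cells, read 385.6 and 311.0 (0.31), one of HNRNPR read 80.3 and 65.8 (0.29), and the brightest sets of these genes differed by -0.03 and 0.04. HNRNPA1, an exon repressor with many near-identical pseudogenes, was lower on all 3 of its own sets, at -0.05, -0.34 and -0.20, of which the lowest read 319.8 at 6 h and 405.9 at 0 h. HNRNPLL also had the only set that passed the floor at a single time, at 34.4 at 6 h and 51.5 at 0 h, at least 1.13-fold lower.

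HNRNPD-DT, the noncoding RNA transcribed divergently from HNRNPD, was at 132.9 at 6 h and 109.0 at 0 h (0.29). Its only measured set is dim, and it was under 1.2-fold with no floor and a pseudocount of 16, and with quantile or loess scaling.

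Sets of a gene often differed in sign, and did so in a larger share of genes the more sets a gene had. Of 31 genes with at least 2 measured sets, 9 had all sets higher, 4 had all lower (SRSF4, SRSF7, HNRNPA1 and HNRNPL) and 18, or 58.1%, had sets of both signs, beside 48.6% of all 6122 such genes. These shares depend on how many sets a gene has and are not read against each other. Among all genes, sets of both signs were found in 36.1% of genes with 2 measured sets, 59.1% with 3, 68.7% with 4 and 75.0% with 5, and among the splicing families in 3 of 8, 4 of 9, 3 of 5 and 5 of 6 genes. All sets were higher in 35.4%, 26.6%, 22.3% and 18.1% of all genes with 2, 3, 4 and 5 sets, and all were lower in 28.3%, 14.2%, 8.9% and 6.92%. In none of the 31 was 1 set at least 1.2-fold higher and another at least 1.2-fold lower, which 1.24% of all such genes showed. The pooled SD between sets of a gene was 0.12 for these 31 genes, beside 0.16 for all. The median range between a gene's sets went the other way, at 0.21 for the 31 and 0.19 for all. Neither measure was adjusted for brightness or for the number of sets. Of the 12 sets at least 1.2-fold higher, 8 were dimmer than a mean log2 intensity of 8.64, the median of genes above the floor at both times, and 3 of the 5 lower sets were. Dim sets scattered more: the SD of the differences was 0.20 over the 38 dimmer sets and 0.14 over the 81 brighter ones, beside 0.22 and 0.16 for all measured sets.

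Other genes of splicing and RNA surveillance were read from 6 lists holding 112 genes, of which 99 were measured. Of these, 54 were higher, 45 were lower and the median was 0.016. At the fold sizes used above, 4 were at least 1.2-fold higher and 5 at least 1.2-fold lower, or 1 each way at 1.5-fold. Over all measured genes 54.3% were higher, 9.9% and 5.29% were at least 1.2-fold higher and lower, and 0.75% and 0.182% at least 1.5-fold. Core spliceosome genes were level. Among U1, U2, U2AF and SF3 factors 8 of 19 were higher, 11 were lower and the median was -0.01. The largest differences were those of the U1 protein SNRNP70 (1501 at 6 h, 1765 at 0 h) and the branch point binding protein SF1 (1736 and 1501). Among U4/U6, U5 and Sm factors 8 of 18 were higher, 10 were lower and the median was -0.02. The largest differences were those of PRPF4 (1647 and 1847) and PRPF8, the largest core protein (1768 and 1577), and in both lists 0 genes reached 1.2-fold.

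Other splicing regulators varied most, from -0.62 to 0.99, with 25 of 35 higher, a median of 0.05, and 3 genes at least 1.2-fold higher and 3 lower, beside the 54.3% higher, 9.9% and 5.29% of all measured genes. The muscleblind protein MBNL2 was at 99.9 at 6 h and 50.3 at 0 h (0.99), on a single measured set that was close to the floor at 0 h. KHDRBS3, a STAR family regulator, was at 199.9 and 307.8 (-0.62), also on a single set. TARDBP, which encodes the hnRNP-like protein TDP-43 and was named after its values were seen, was lower on both measured sets, at 3155 and 4051 on the brightest (-0.36).

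Exon junction and speckle factors gave a median of 0.006. Of 12 genes 6 were higher and 0 passed 1.2-fold, a size that 9.9% of all measured genes reached upward and 5.29% downward. The largest differences were those of SAP18 (5093 at 6 h, 4623 at 0 h) and RBM8A (3845 and 4093). The 3 measured sets of SAP18 lay between -0.04 and 0.14, and the 6 of RBM8A between -0.20 and 0.17. A list of further nuclear kinases, phosphatases and TOP1 had a median of 0.04 over 9 genes, 6 higher and 3 lower. HIPK2 was at 380.1 and 314.4 (0.27), with 7 measured sets between -0.19 and 0.40. DYRK3 was at 97.2 and 119.7 (-0.30) on a single measured set. Of 10 nonsense-mediated decay genes 6 were measured, 1 higher and 5 lower, with a median of -0.11. Over all measured genes 54.3% were higher and 45.7% lower, and neither of these short lists was tested against that share. SMG9 was at 177.4 and 229.4 (-0.37), with a second set at 0.06, and SMG6 at 88.6 and 100.2 (-0.18).

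**Figure D4:**
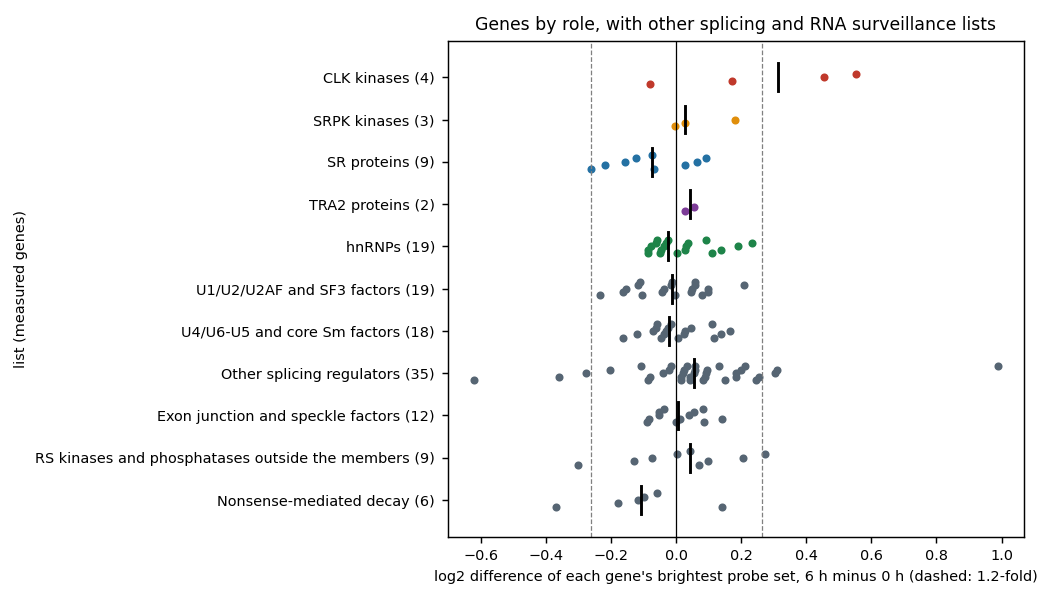
Log2 difference of each gene's brightest probe set (6 h minus 0 h, x axis) for the splicing families by role (coloured) and the 6 other lists (grey), with the number of measured genes in parentheses, black bars at the medians and dashed lines at 1.2-fold. The CLK kinases have the highest median (0.31 over 4 genes), and the SR proteins (-0.07), hnRNPs (-0.03) and core spliceosome lists (-0.01 and -0.02) lie close to 0.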

How the data were processed

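The authors deposited a linear intensity for each of 54675 probe sets on each array. Per the submitters' processing notes the tool was MAS5; its version and settings are not given in the sources used here, and whether the authors scaled the arrays to a common mean is not stated. Probe sets were named through the platform annotation, with symbols updated by Entrez identifier through RefSeq (GRCh38.p14). Sets assigned to several genes and array controls were left out. Intensities were floored at the 50th percentile of both arrays (45.4) and then converted to log2. Each gene took its measured set with the highest mean, and differences are 6 h minus 0 h. Calls are folds of 1.2 or 1.5, with no test. The members and lists were chosen with earlier results of these data known.

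Named with values were all CLK, SRPK and TRA2 genes, the 8 SR and 8 hnRNP genes with the largest absolute difference and the 2 brightest of each, and the 2 largest differences of each other list. The alternatives tried were floors at other percentiles (40th and 60th), no floor with log2(value + 16), median centring, quantile or loess scaling (span 0.3), the median of a gene's sets, and leaving out _x_at and _s_at sets. The steps were tested on simulated data, where 1.5-fold differences put without noise into bright sets were returned. That checks the arithmetic and does not cover dim sets or the 1.2-fold calls. Python 3.11.15, pandas 2.3.3 and statsmodels 0.14.6 were used.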

Additional observations from a re-analysis of the deposited data

How the results depend on the processing

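CLK1, CLK4, CLK3, SRPK2 and SRSF11 were higher and SRSF7, SRSF1, SRSF3, SRSF4 and SRSF5 lower under every alternative that measured them. Of the 38 genes 24 kept their sign over those of the 8 alternatives that measured them, 13 higher and 11 lower. Some, CLK1 among them, were not measured under all 8. For a gene with 1 measured set, such as CLK1, the alternatives rescale the same intensities, so a kept sign says little there. CLK1 lay between 0.50 and 0.55, CLK4 between 0.27 and 0.45 and SRSF7 between -0.32 and -0.23. Genes at least 1.2-fold lower numbered 1 with median centring, 2 with quantile and 1 with loess scaling, and 3 without _x_at and _s_at sets, against 0 as reported. Genes at least 1.2-fold higher numbered 5 without those sets, against 3. Leaving them out also left fewer genes measured, 9845 against 12669 over all genes. Of the families, 7 SR proteins, 15 hnRNPs, 2 SRPK kinases and 1 CLK kinase remained measured. Shares of all genes past 1.2-fold are not given for the alternatives, so these counts are not read against a background. Without _x_at and _s_at sets the median was 0.17 for SRPK kinases and 0.043 for hnRNPs. With the median of each gene's sets it was 0.013 for hnRNPs, so the sign of the hnRNP median is not settled. For the other splicing lists the median was -0.0054 with centring, -0.0051 with quantile and -0.0017 with loess scaling, and with the median of each gene's sets 3 of their genes were at least 1.2-fold lower. Leaving out HNRNPD-DT and HNRNPA3P1, chosen after the data were seen, left 2 genes 1.2-fold higher. The cause of these shifts was not tested. No paired analysis was possible because each time has 1 array. Signal over background limits the dim sets, and the 1 array per time limits all values.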

Other observations

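Probe sets assigned to several genes were left out of the comparison. Some cover family members that have no set of their own, and others name HNRNPA1, HNRNPA3 or HNRNPUL2, which do have such sets. A set of BSCL2 is included only because it also names a read-through gene with HNRNPUL2. SRSF2, a core SR protein whose sets also name the microRNA gene MIR636, was at 8953 at 6 h and 8724 at 0 h, 6712 and 6628, and 3130 and 3264, differences of 0.04, 0.02 and -0.06. SRSF9, whose sets also name GATC, was at 5802 at 6 h and 5523 at 0 h (0.07) and at 5235 and 5035 (0.06). HNRNPH2 was at 2508 and 2482 (0.02), on a set that also names a read-through gene. A set of HNRNPA1 and one of its pseudogenes was at 15934 and 15789 (0.01), and a set of HNRNPA1 with several of its copies at 14422 and 13607 (0.08), where the sets named for HNRNPA1 alone were lower. In all, 14 such sets were measured, with differences from -0.15 to 0.14 and 0 past 1.2-fold. Among all measured probe sets of a single gene 10.9% were at least 1.2-fold higher and 5.68% at least 1.2-fold lower.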
